A study of Mus musculus with 6 samples.

Results

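Enteroendocrine cells are the hormone-secreting cells of the gut epithelium, and 8 transcription factor genes of their lineage were followed here in the mouse pylorus: Neurog3, Neurod1, Pax6, Pax4, Isl1, Nkx2-2, Rfx6 and Insm1. The 8 were taken by gene symbol from a table of 39179 genes, and each symbol had 1 row. The table holds 6 RNA sequencing libraries, 3 labelled Sox2 KO, from mice with Rosa26CreER and Sox2 fl/fl, and 3 labelled Sox2 WT, from mice with Rosa26WT and Sox2fl/fl, all of strain C57BL/6 x 129 mixed. Values are given in the order of replicates 1 to 3 of each group. Both groups carried the floxed Sox2 alleles and both were given tamoxifen at an age of 8 weeks, so only the Cre recombinase differed by design; CreER at Rosa26 is not restricted to the stomach epithelium or to endocrine cells. Pylori were collected 2 weeks later, at 10 weeks by the series text, although the age label of the samples reads 8 weeks. RNA came from epithelium and mesenchyme after the muscle layer had been pulled away.

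In the gut, endocrine cells arise from epithelial progenitors that switch on Neurog3, a basic helix-loop-helix (bHLH) factor, for a short time. Neurog3 is followed by Neurod1, Insm1, Nkx2-2, Rfx6 and Pax4, and by Pax6 and Isl1, which remain in maturing cells that make gastrin, somatostatin, serotonin and other products. Sox2 is a transcription factor of stomach stem and progenitor cells, and the comparison asks which genes differ once it is deleted.

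The libraries held between 21923203 and 32455361 recovered reads in genes, and each detected between 20180 and 20550 genes. Sox2 itself measured 11.1, 9.03 and 10.9 RPKM (reads scaled to gene length and to library size) across the Sox2 WT replicates, against 0.342, 0.210 and 0.420 RPKM across the Sox2 KO replicates, which matches the labels (limma log2 fold change -3.72, adjusted p = 2.9e-04; exact two-sided permutation p = 0.1, the smallest that 3 against 3 allows). Sex differed along with genotype: by Xist and the Y-linked gene Ddx3y, Sox2 WT replicates 2 and 3 were female, and all Sox2 KO libraries and Sox2 WT replicate 1 were male. Sex and genotype can therefore be compared only through Sox2 WT replicate 1. Endocrine products were abundant in the tissue: gastrin (Gast) lay between 2766 and 6383 RPKM and the granin Chga between 53.7 and 146 RPKM over the 6 libraries. In a bulk sample, fewer endocrine cells and less RNA per endocrine cell cannot be told apart.

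Sequence before a RefSeq start site is shown for 4 of these genes: Neurog3, which starts the programme, Pax6, a member whose groups did not overlap, and Nkx2-2 and Rfx6, which had a match to a motif searched. Each is the 250 bases before that start on GRCm38.p6, 5′ to 3′ on the gene's strand. The RefSeq start of Neurog3 is that of the annotated gene, and the one shown for Pax6 lies 4 bases before it. For Nkx2-2 and Rfx6 the RefSeq start lies 7841 and 7762 bases inside the gene as annotated by GENCODE, whose coordinates are given with the values, so these windows precede an internal start and not the outermost one. RefSeq windows were matched for 6 of the 8 genes; those of Insm1 and Pax4 were not used here. Capitals mark CATTGT, a core letter string bound by SOX factors, and CAGATG, an E-box of the kind bound by bHLH factors such as Neurog3 and Neurod1, each searched on both strands (ACAATG and CATCTG on the other), with no overlap between the motifs. For Pax6 the first of 2 RefSeq start sites is shown.
Neurog3 (chr10:62132840-62133089, + strand): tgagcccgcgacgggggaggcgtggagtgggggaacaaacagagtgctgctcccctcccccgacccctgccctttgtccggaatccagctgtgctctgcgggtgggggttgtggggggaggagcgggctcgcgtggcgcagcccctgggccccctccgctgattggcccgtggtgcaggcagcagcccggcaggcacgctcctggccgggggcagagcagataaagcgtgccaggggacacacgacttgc
Pax6 (chr2:105668646-105668895, + strand): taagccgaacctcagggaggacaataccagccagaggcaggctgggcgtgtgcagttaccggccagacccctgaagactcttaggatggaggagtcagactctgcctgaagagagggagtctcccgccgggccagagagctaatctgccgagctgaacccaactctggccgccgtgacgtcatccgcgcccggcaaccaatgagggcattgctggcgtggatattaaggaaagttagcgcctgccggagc
Nkx2-2 (chr2:147186403-147186652, - strand): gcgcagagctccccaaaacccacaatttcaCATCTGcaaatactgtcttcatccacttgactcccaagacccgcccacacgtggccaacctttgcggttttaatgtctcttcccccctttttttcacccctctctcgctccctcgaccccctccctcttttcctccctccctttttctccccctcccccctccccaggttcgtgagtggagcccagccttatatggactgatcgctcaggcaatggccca
Rfx6 (chr10:51685268-51685517, + strand): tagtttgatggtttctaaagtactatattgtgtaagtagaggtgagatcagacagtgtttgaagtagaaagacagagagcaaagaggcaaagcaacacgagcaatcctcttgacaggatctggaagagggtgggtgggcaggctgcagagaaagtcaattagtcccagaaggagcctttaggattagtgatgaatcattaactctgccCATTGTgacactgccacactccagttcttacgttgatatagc
Rfx6 had 1 SOX match, beginning 42 bases before that internal RefSeq start, and Nkx2-2 had 1 E-box match, beginning 220 bases before its own; both matches lie inside the annotated genes. The windows of Neurog3, Neurod1, Isl1 and both starts of Pax6 held neither string. Among 32841 mouse promoter windows of the same length, 10.7% held the SOX string and 14.4% the E-box, and a match is a description of letters, not of a bound site. The Neurog3 window was 71.2% G and C, as was that of Isl1, and the Rfx6 window was the lowest at 44.0%, against a median of 52.4% over all windows.

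Expression of the 8 genes was low. On the RPKM scale, averaged over the 6 libraries, Isl1 (4.00) and Insm1 (3.30) were highest, followed by Rfx6 (1.77), Neurod1 (1.74), Neurog3 (1.64), Nkx2-2 (1.25), Pax6 (0.871) and Pax4 (0.0287). Isl1 lay above Insm1 in 4 of 6 libraries, and these 2 are not separated by their spread. Rfx6, Neurod1 and Neurog3 changed places from library to library: Rfx6 was above Neurod1 in 4 of 6 and Neurod1 above Neurog3 in 3 of 6. The order below them held in each of the 6 libraries, with Neurog3 above Nkx2-2, Nkx2-2 above Pax6 and Pax6 above Pax4.

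**Figure D1:**
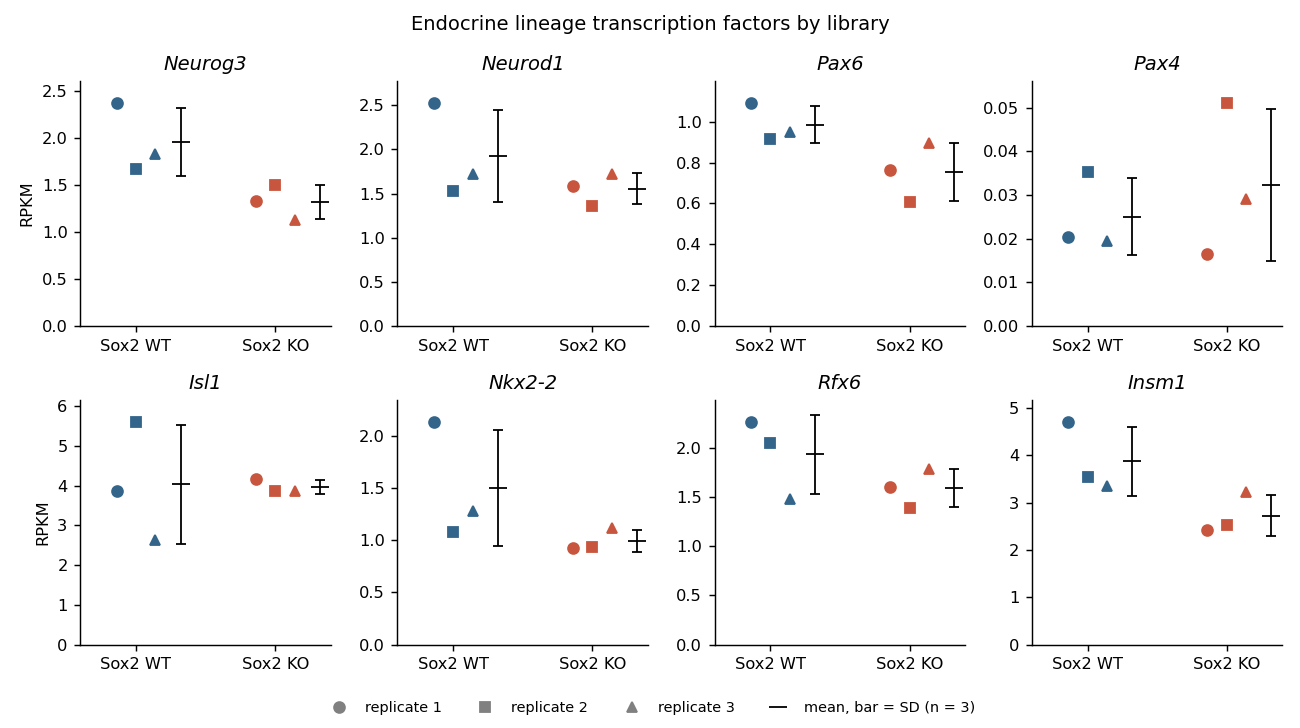
RPKM of each of the 8 genes (vertical axes, each starting at 0) in the 3 Sox2 WT and 3 Sox2 KO libraries; points are libraries, with a symbol for each replicate number, and the bar beside them is mean and SD. The Sox2 KO points lie below all Sox2 WT points for Neurog3, Pax6 and Insm1, and Sox2 WT replicate 1 (circle) is the highest point for Neurog3, Neurod1, Pax6, Nkx2-2, Rfx6 and Insm1.

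Between the groups, 6 of the 7 members that could be tested had a negative log2 fold change (Sox2 KO minus Sox2 WT, of RPKM + 0.5) and 0 passed limma at an adjusted p of 0.05. An unadjusted p under 0.05 was reached by 2 of the 7 in limma, Neurog3 and Insm1, and by 2 with limma's voom on recovered reads, where again 0 passed. Pax4 was under the filter of a mean of 0.5 RPKM. Over the 14045 genes tested, 4 passed (0.0285%), 2 in each direction (0.0142% lower). An unadjusted p under 0.05 was reached by 3.15% of all genes, 1.04% with lower values in Sox2 KO. A negative log2 fold change was found in 43.2% of all genes. The median log2 fold change was -0.25 over the 7 members and 0.02 over all genes tested. In 3 of the 7, Neurog3, Pax6 and Insm1, every Sox2 KO library lay below every Sox2 WT library, a pattern found in 2.99% of all genes; the opposite pattern, found in 4.09%, was seen in 0 of the 7. The members were chosen with earlier results of these data known, so these shares describe the 7 genes and test nothing.

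Neurog3 (ENSMUSG00000044312, mm10 chromosome 10, 62133090 to 62134763, + strand, a single exon) is the factor that commits a progenitor to the endocrine fate. It measured 2.37, 1.67 and 1.83 RPKM across the Sox2 WT replicates, against 1.33, 1.50 and 1.13 RPKM across the Sox2 KO replicates. The groups did not overlap, and the closest pair was Sox2 WT replicate 2 and Sox2 KO replicate 2. These values rest on 88, 72 and 72 reads in Sox2 WT and 61, 67 and 59 reads in Sox2 KO. Counting error alone gives 95% Poisson intervals of 1.31 to 2.10 RPKM for Sox2 WT replicate 2 and 1.16 to 1.90 RPKM for Sox2 KO replicate 2, so that closest pair is not separated by its reads. The Sox2 KO libraries averaged 1.32 ± 0.184 RPKM, or 67.4% of the 1.96 ± 0.366 RPKM averaged by the Sox2 WT libraries (SD, n = 3 each), with a log2 fold change of -0.43 (95% interval -0.79 to -0.07, limma adjusted p = 1.00). In the annotation 273 exonic bases of Neurog3 are shared with Fam241b on the opposite strand, and strandedness is not given in the sources used here. Fam241b measured 4.04, 4.44 and 4.80 RPKM across the Sox2 WT replicates, against 3.70, 4.64 and 5.98 RPKM across the Sox2 KO replicates, groups that overlapped.

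Insm1 (ENSMUSG00000068154, chromosome 2, 146221921 to 146225020, + strand, a single exon) encodes a zinc finger repressor that acts early in endocrine differentiation. It measured 4.71, 3.55 and 3.36 RPKM across the Sox2 WT replicates, against 2.42, 2.52 and 3.22 RPKM across the Sox2 KO replicates. Sox2 KO replicates 1 and 2 lay below 3.36 RPKM, the lowest of the Sox2 WT libraries, while Sox2 KO replicate 3 lay just under Sox2 WT replicate 3. The Sox2 KO mean was 70.3% of the Sox2 WT mean, and the log2 fold change was -0.44 (95% interval -0.82 to -0.06, limma adjusted p = 1.00).

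Neurod1, a bHLH factor downstream of Neurog3 (ENSMUSG00000034701, chromosome 2, 79452521 to 79456751, - strand), measured 2.52, 1.53 and 1.72 RPKM across the Sox2 WT replicates, against 1.59, 1.36 and 1.72 RPKM across the Sox2 KO replicates. The groups overlapped: Sox2 WT replicate 1 was the highest library, Sox2 KO replicate 2 the lowest, and the others lay between 1.53 and 1.72 RPKM. The log2 fold change was -0.22 (95% interval -0.63 to 0.19, limma adjusted p = 1.00). Neurod1 shares 201 exonic bases with Cerkl on the same strand, which was at most 0.323 RPKM in any library.

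Nkx2-2, a homeodomain factor needed for several hormone-producing cell types (ENSMUSG00000027434, chromosome 2, 147177546 to 147194243, - strand), measured 2.14, 1.08 and 1.28 RPKM across the Sox2 WT replicates. Across the Sox2 KO replicates it measured 0.924, 0.935 and 1.12 RPKM. Sox2 KO replicates 1 and 2 lay below every Sox2 WT library and Sox2 KO replicate 3 lay above Sox2 WT replicate 2. The Sox2 KO mean was 66.2% of the Sox2 WT mean, and the log2 fold change was -0.39 (95% interval -0.87 to 0.09, limma adjusted p = 1.00). Sox2 WT replicate 1 alone was 1.81 times the mean of the other Sox2 WT libraries. The antisense gene Nkx2-2os, with 278 shared exonic bases, was at most 0.0136 RPKM.

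Rfx6, a winged-helix factor of endocrine progenitors and of mature gut endocrine cells (ENSMUSG00000019900, chromosome 10, 51677756 to 51730432, + strand), measured 2.27, 2.06 and 1.49 RPKM across the Sox2 WT replicates. Across the Sox2 KO replicates it measured 1.60, 1.39 and 1.79 RPKM. The groups overlapped through Sox2 WT replicate 3, which was below Sox2 KO replicates 1 and 3. The log2 fold change was -0.21 (95% interval -0.59 to 0.17, limma adjusted p = 1.00).

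Pax6, a paired-box factor required for gastrin and somatostatin cells of the stomach (ENSMUSG00000027168, chromosome 2, 105668900 to 105697364, + strand), measured 1.09, 0.917 and 0.951 RPKM across the Sox2 WT replicates, against 0.763, 0.609 and 0.893 RPKM across the Sox2 KO replicates. The groups did not overlap, but Sox2 KO replicate 3 was 0.893 against 0.917 in Sox2 WT replicate 2. Its log2 fold change was -0.25 (95% interval -0.59 to 0.09, limma adjusted p = 1.00). The opposite-strand gene Pax6os1, which shares no exonic base with it, was at most 0.185 RPKM.

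Isl1, a LIM-homeodomain factor of endocrine cells that is also used in neurons and in the developing pyloric muscle (ENSMUSG00000042258, chromosome 13, 116298281 to 116309689, - strand), was the 1 tested member without a negative log2 fold change. It measured 3.87, 5.61 and 2.63 RPKM across the Sox2 WT replicates, against 4.17, 3.87 and 3.86 RPKM across the Sox2 KO replicates. The highest and the lowest library were both Sox2 WT, and the 3 Sox2 KO libraries lay between them. Without Sox2 WT replicate 3 the log2 fold change was -0.21 and without Sox2 WT replicate 2 it was 0.27; with all libraries it was 0.03 (95% interval -0.51 to 0.57, limma adjusted p = 1.00), an interval that leaves room for a change in either direction. Ghrelin (Ghrl), the hormone gene of gastric X/A-like cells, was also highest in Sox2 WT replicate 2 and lowest in Sox2 WT replicate 3, with 334, 1490 and 290.0 RPKM across the Sox2 WT replicates, against 505, 602 and 468 RPKM across the Sox2 KO replicates. The duodenal epithelium list had a median deviation of 0.51 in Sox2 WT replicate 2 and -1.04 in Sox2 WT replicate 3, and its part in the Isl1 values was not tested.

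Pax4, a paired-box factor of early endocrine precursors (ENSMUSG00000029706, chromosome 6, 28442334 to 28449353, - strand), was barely detected. It had 1, 2 and 1 reads across the Sox2 WT replicates, against 1, 3 and 2 reads across the Sox2 KO replicates, or 10 reads in all. At this depth no difference between the groups was detectable, and no fold change is given.

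For Neurod1, Isl1, Nkx2-2 and Rfx6 the SD within Sox2 WT was larger than the difference between the group means. In Sox2 WT replicate 1, 6 of the 7 tested members had their highest value of the 6 libraries, the exception being Isl1, whereas 12.7% of all tested genes were highest there. The median deviation of the 7 members from their 6-library means, on the log2(RPKM + 0.5) scale, was 0.45, 0.06 and 0.05 across the Sox2 WT replicates, against -0.11, -0.25 and 0.00 across the Sox2 KO replicates. By this median Sox2 KO replicate 3 was the Sox2 KO library nearest to Sox2 WT, although Neurog3 had its lowest value there.

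**Figure D2:**
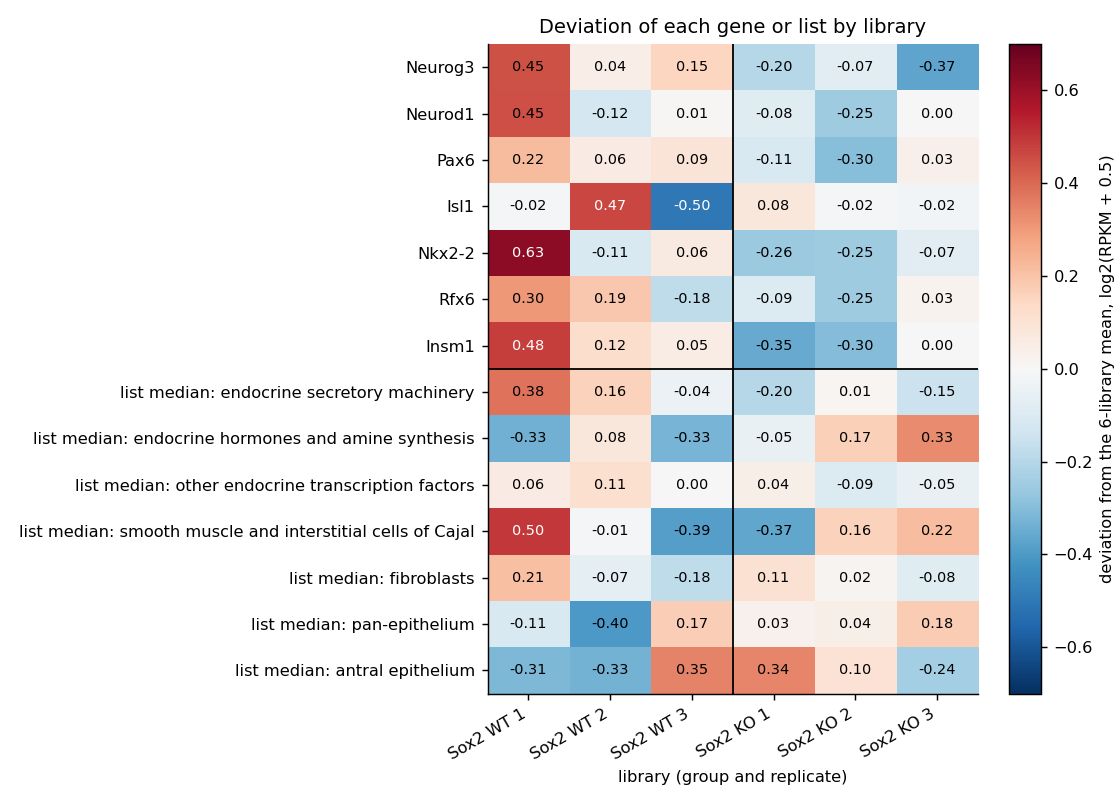
Deviation from the 6-library mean, in log2(RPKM + 0.5), of the 7 tested members (upper rows) and of the medians of 7 gene lists (lower rows) in each library (columns, Sox2 WT left and Sox2 KO right); red is above and blue below the mean. Sox2 WT replicate 1 is red for 6 members, and also for endocrine secretory machinery (0.38) and smooth muscle (0.50).

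Without Sox2 WT replicate 1, the log2 fold change shrank from -0.43 to -0.31 for Neurog3, from -0.44 to -0.30 for Insm1, from -0.25 to -0.20 for Pax6, from -0.21 to -0.11 for Rfx6, from -0.39 to -0.17 for Nkx2-2 and from -0.22 to -0.05 for Neurod1. When the comparison was made with only Sox2 WT replicate 1, the single male Sox2 WT library, it was -0.66 for Neurog3, -0.70 for Insm1 and -0.82 for Nkx2-2, with limma adjusted p of 0.995, 0.995 and 0.906. The sign in this second comparison was fixed by Sox2 WT replicate 1 being the highest library. In that same library the smooth muscle and interstitial cell list had a median deviation of 0.50 and the fibroblast list of 0.21; their part in the members' values was not tested.

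**Figure D3:**
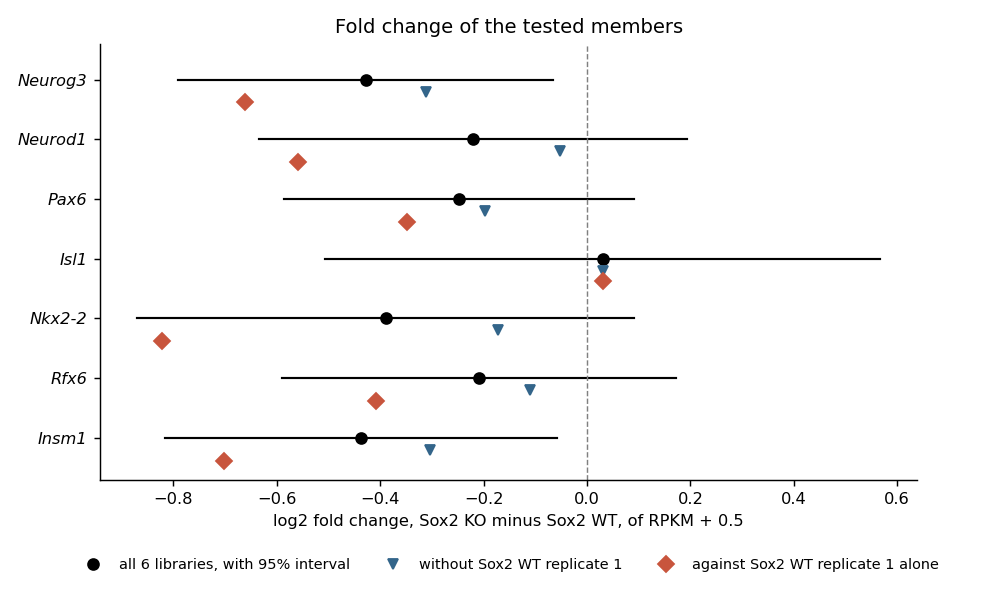
Log2 fold change of the 7 tested members (horizontal axis, Sox2 KO minus Sox2 WT of RPKM + 0.5): black points with 95% intervals use all 6 libraries, blue triangles leave out Sox2 WT replicate 1, and red diamonds keep Sox2 WT replicate 1 as the only control. The intervals of Neurog3 and Insm1 lie below 0 before adjustment over all genes, and the triangles lie nearer to 0 than the points for every member with a negative fold change.

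Other cell types of the tissue and its neighbours were looked at through their markers. Of 13 enteric neuron genes, 2 reached the filter (Uchl1 and Stmn2, log2 fold changes of -0.04 and 0.07), and the summed level of the list was 2.91 to 3.59 RPKM in Sox2 WT and 2.61 to 3.36 RPKM in Sox2 KO. Of 14 pancreas genes, Cpa1 and Amy2a5 were listed at 0 in all 6 libraries, and Ins1 and Ins2, the insulin genes, were at most 0.246 and 0.0954 RPKM. The list's summed level, 509 to 541 RPKM in Sox2 WT and 291 to 458 RPKM in Sox2 KO, came almost wholly from Cela1, at 289 to 540 RPKM. The smooth muscle list summed to 477 to 738 RPKM in Sox2 WT and 453 to 703 RPKM in Sox2 KO, ranges that overlapped, and Hand1 was listed at 0 in all 6 libraries. Its most abundant genes Acta2, Tagln and Actg2, of the contractile apparatus, had log2 fold changes between -0.13 and 0.06.

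In the remaining lists 0 genes passed limma. Of 6 enteric glia genes 4 were tested, with a median log2 fold change of -0.06, with S100b (0.01) and Erbb3 (0.05) among the most abundant. All 7 fibroblast genes were tested, with a median of 0.02, and the most abundant were Col3a1 (0.11), Dcn (-0.04) and Dpt (-0.01). Pan-epithelial genes leaned the other way from the lineage factors. The log2 fold change was above 0 for all 6 (median 0.17, 0 at an unadjusted p under 0.05 in limma). Among them were the keratins Krt8 (0.15), Krt18 (0.22) and Krt19 (0.12). By library, the median deviation of this list was -0.11, -0.40 and 0.17 in Sox2 WT and 0.03, 0.04 and 0.18 in Sox2 KO. Sox2 WT replicate 2 was thus the lowest library, and the groups overlapped for each of the 6 genes. The 7 antral genes had a median of 0.16, with Gkn1 (0.25), Gkn2 (0.29) and Tff1 (0.16) the most abundant. Of 9 duodenal genes 5 were tested, with a median of 0.29, and the most abundant were Fabp2 (-0.17), Apoa1 (0.29) and Apoa4 (0.31). An unadjusted p under 0.05 in limma was reached by 2 of the 5, against 3.15% of all genes tested. These 2 had opposite signs: Fabp1 (1.18) and Alpi (-1.10), both with overlapping groups and named after their values were seen. In the pancreas list, the other abundant genes were Ctrb1 (0.69) and Cpb1 (0.08), and Cela1 (-0.51) was the 1 gene whose groups did not overlap. The part of any of these cell types in the members' values was not tested.

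Among 20 other transcription factors of endocrine cells, 16 were tested, 0 passed and the median log2 fold change was -0.15. An unadjusted p under 0.05 in limma was reached by 3 of the 16, against 3.15% of all genes tested. Nkx6-1, a homeodomain factor of pancreatic beta cells and of some gut endocrine cells, measured 1.11, 0.731 and 0.827 RPKM across the Sox2 WT replicates, against 0.180, 0.215 and 0.149 RPKM across the Sox2 KO replicates. The 3 Sox2 KO libraries lay well below the 3 Sox2 WT libraries, on 17 to 21 reads against 69 to 90 reads. Its log2 fold change came to -1.02 with an SE of 0.158 (limma adjusted p = 0.189).

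Nkx6-1 did not pass under any of 16 alternatives tried, over which the limma adjusted p ran from 0.0671 to 0.611 and the log2 fold change from -2.26 (voom on recovered reads) to -0.67 (pseudocount 1). Without Sox2 WT replicate 1 its log2 fold change was -0.91, close to the value with all libraries, unlike those of Nkx2-2 and Neurod1. Lmx1a, a LIM-homeodomain factor of serotonin-producing enterochromaffin cells, was under the filter, at 10, 14 and 10 reads across the Sox2 WT replicates, against 2, 1 and 3 reads across the Sox2 KO replicates. Tph1, the serotonin synthesis enzyme of these cells, measured 11.0, 6.88 and 11.4 RPKM across the Sox2 WT replicates, against 2.22, 1.39 and 1.56 RPKM across the Sox2 KO replicates (log2 fold change -2.19, limma adjusted p = 0.0501). Lmx1a, Tph1 and also Hes1, Tcf3, Tcf12 and Tcf4 were picked for mention after their values were seen.

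Other tested factors of that list overlapped between the groups. Foxa2, an endoderm factor, also had an unadjusted p under 0.05 in limma, with 13.7, 15.7 and 16.8 RPKM across the Sox2 WT replicates, against 11.6, 12.1 and 13.9 RPKM across the Sox2 KO replicates (log2 fold change -0.29, limma adjusted p = 1.00). The serotonin-lineage factor Fev had a log2 fold change of -0.35. The gastric homeobox gene Nkx6-3 was by far more abundant than any of the 8 members, with 65.4 to 99.3 RPKM, and had a log2 fold change of 0.25. Pdx1, a factor of antrum, duodenum and pancreas, had 0.21 and the broadly used Foxa1 had 0.01. For Nkx6-2, Sox4, Etv1, St18, Hhex, Glis3 and Runx1t1 the log2 fold changes ran from -0.22 to 0.11.

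**Figure D4:**
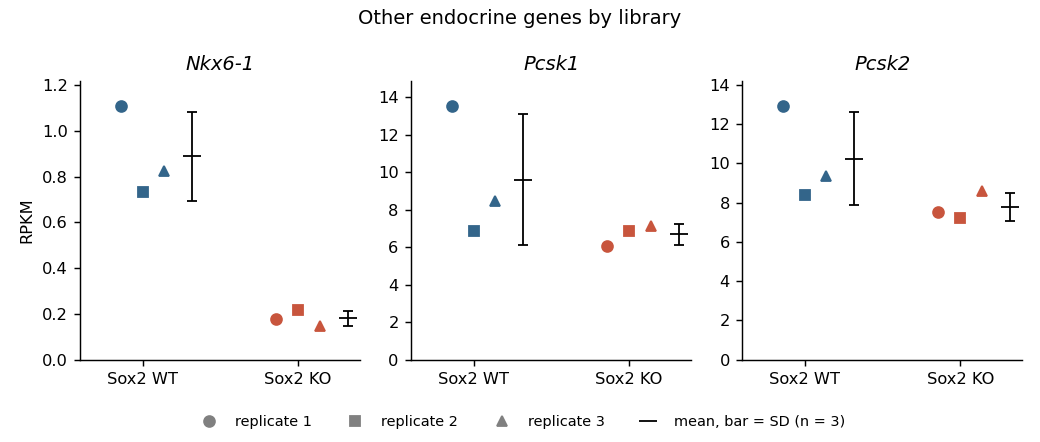
RPKM (vertical axes, each starting at 0) of Nkx6-1, Pcsk1 and Pcsk2 in the 3 Sox2 WT and 3 Sox2 KO libraries; points are libraries and the bar is mean and SD. Nkx6-1 is separated between the groups, while Pcsk1 and Pcsk2 stand out through Sox2 WT replicate 1, at 13.5 and 12.9 RPKM.

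The Notch pathway restrains Neurog3 in neighbouring progenitors, and Id proteins block bHLH factors by binding their partners. Of 18 genes of this list, 15 were tested, 0 passed, 0 had an unadjusted p under 0.05 in limma and the median log2 fold change was -0.02. The Notch target Hes1, a repressor of Neurog3, measured 35.4, 49.9 and 45.2 RPKM across the Sox2 WT replicates, against 34.9, 40.5 and 45.0 RPKM across the Sox2 KO replicates (log2 fold change -0.11). Id1, Id2 and Id3 had log2 fold changes of -0.0047, -0.10 and 0.33, with overlapping groups for each. The bHLH partner genes Tcf3, Tcf12 and Tcf4 had -0.07, -0.05 and -0.18.

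Downstream of the lineage factors, 16 of 18 genes of the secretory machinery were tested and 0 passed, with a median log2 fold change of -0.35. A negative log2 fold change was found in 14 of the 16, against 43.2% of all genes tested. An unadjusted p under 0.05 in limma was reached by 4 of the 16, against 3.15% of all genes tested. In 5 of the 16 the Sox2 KO libraries lay below every Sox2 WT library, and in 0 above (2.99% and 4.09% of all genes). Chgb, a granin of dense-core granules, measured 154, 100.2 and 130 RPKM across the Sox2 WT replicates, against 56.8, 68.4 and 67.5 RPKM across the Sox2 KO replicates (log2 fold change -0.97, limma adjusted p = 0.298), while Chga and the carboxypeptidase gene Cpe overlapped between the groups (-0.49 and -0.18). Of the 16 hormone and amine synthesis genes, 11 were tested, 4 with a negative and 7 with a positive log2 fold change. Of these 11, 0 passed and 5 had an unadjusted p under 0.05 in limma, a level reached by 3.15% of all genes tested. In 4 of the 11 the Sox2 KO libraries lay above every Sox2 WT library: Cck, Gip, Pyy and Iapp, with log2 fold changes of 1.79, 1.12, 0.57 and 0.83. In 2, Tph1 and Ddc (-2.19 and -0.11), they lay below; these 6 genes were picked with their values in view. The median log2 fold change over the 11 tested genes was 0.15, of the opposite sign to that of the lineage factors and the secretory machinery. The difference between the lists was not tested. The most abundant hormone genes, Gast, Sst and Ghrl, had log2 fold changes of 0.04, 0.15 and -0.01.

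For each member, the tested genes whose 6-library profile was closest were found by the root mean square difference of centred log2(RPKM + 0.5) values. For Nkx2-2 these were 2 prohormone convertase genes, Pcsk2 (0.05) and Pcsk1 (0.08), which process peptide hormones. For Neurog3 they were Usp31 (0.05) and Zfp704 (0.07), for Neurod1 Slc35e2 (0.06) and Thsd4 (0.06), for Insm1 Epdr1 (0.05) and Pdxk (0.06), and for Isl1 Mesp2 (0.06) and Nr2f2 (0.07). For Pax6 they were Rrp1b (0.04) and Gm13803 (0.04), and for Rfx6 Zfp275 (0.05) and 4632415L05Rik (0.06). Among the members themselves, the profile of Isl1 differed by 0.25 to 0.45 from the other 6, which differed from each other by 0.11 to 0.24. With 14045 genes and 6 libraries, some close profiles are found for any gene.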

How the data were processed

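Total RNA of mouse pylorus was sequenced in 6 libraries. The authors deposited RPKM for 39179 genes; per the submitters' processing notes CASAVA 1.7, STAR and the build mm10 were used, and the sources used here do not give the counter, annotation or strandedness. The 6 single-library tables equal the series table. Whether each library comes from a separate animal is not in the labels. By the sex genes, Sox2 WT replicate 1 came from a different animal than Sox2 WT replicates 2 and 3. The p-values measure the spread between libraries. Within Sox2 KO, and between Sox2 WT replicates 2 and 3, that spread may be technical.

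The scale of the test was log2(RPKM + 0.5), in limma 3.58.1 in R 4.3.3 (mean-variance trend, two-sided, Benjamini-Hochberg over 14045 genes with a mean of at least 0.5 RPKM, 1 row per symbol, the highest). This scale understates changes of low genes. The limma script was tested on simulated data. Whole reads were recovered from the RPKM by the ratios within a gene, within 1e-05 reads, for 23538 of 23538 genes above 0. A factor common to all libraries would be lost, so reads and their sums are minima; intervals from them cover counting error only. Coordinates are from GENCODE mouse release 21 on GRCm38 (mm10), promoters from RefSeq on GRCm38.p6.

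The members and lists were chosen with earlier results of these data known. Named genes are the 8 members, Sox2, genes overlapping a member, tested factors of the other endocrine list, the 3 most abundant tested genes of each list and any that passed, and the 2 closest profiles per member; any other gene named was picked with its values in view. Some genes of these lists enter the counts and are not reported here by name. Alternatives covered the pseudocount, filter, scaling, sex, replicate block, variance trend, recovered reads, the threshold and each library left out. Alternatives for the count of members without overlap were added after the data were seen.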

Additional observations from a re-analysis of the deposited data

How the results depend on the processing

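No member passed limma under any alternative tried, at an adjusted p under 0.05 or 0.1, and 6 of the 7 tested members kept a negative log2 fold change in each. In the male libraries alone, and with a term for sex, that sign and the count of 6 without overlap follow from Sox2 WT replicate 1 being the highest library, and show nothing about stability. Over the alternatives the log2 fold change ran from -0.66 to -0.31 for Neurog3, -0.70 to -0.30 for Insm1, -0.82 to -0.17 for Nkx2-2, -0.56 to -0.05 for Neurod1, -0.39 to -0.16 for Pax6 and -0.41 to -0.11 for Rfx6; Pax6 was not tested at a mean of at least 1 RPKM. Isl1 turned to -0.21 without Sox2 WT replicate 3 and to -0.0014 without Sox2 KO replicate 1, and reached 0.27 without Sox2 WT replicate 2. With the replicate block 0 genes were higher and 1 lower, no member passed and no sign changed; the labels state no pairing by number, and the correlations across genes of same-numbered Sox2 WT and Sox2 KO deviations were 0.01, 0.10 and -0.07.

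The count of members with all Sox2 KO values below all Sox2 WT values, 3 of 7, was 6 in the male libraries alone, where 1 Sox2 WT library is compared, and 3 to 5 with 1 library left out (5 without Sox2 WT replicate 2); it was 2 under quantile normalization. Genes higher and lower over the whole table, 2 and 2, were 1 and 2 without a filter, 1 and 2 under median-of-ratios scaling, 1 and 2 under quantile normalization, 1 and 3 without a variance trend, 0 and 1 with a term for sex, 0 and 0 when only male libraries were used, 2 and 6 with voom on recovered reads, and 3 and 5 at an adjusted p under 0.1. With 1 library left out, 0 to 5 genes were higher and 1 to 4 lower. In the male libraries alone Sox2 had a log2 fold change of -3.82 and did not pass (limma adjusted p = 0.154, on 1 Sox2 WT library assumed to vary like the others). The 7 tested members rest on 59 to 674 recovered reads per library, and Pax4 on 1 to 3, which limits the precision.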
